A study of Mus musculus with 6 samples.

Results

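The conserved oligomeric Golgi (COG) complex was followed across the 6 libraries of the series through its subunits *Cog1* to *Cog8*. Members were the genes whose deposited name equals a subunit. Of the 8 subunits, 6 (*Cog2*, *Cog3*, *Cog4*, *Cog5*, *Cog6* and *Cog7*) had a named feature, among 48733 named genes in all. *Cog1* and *Cog8* had no feature of their own name, and the unnamed loci that cover them are given as loci and not as levels of the subunits. RNA was sequenced from 3 libraries labelled bone, from femoral cortical bone after removal of the marrow, and from 3 labelled osteoblasts, grown from bone marrow stromal cells. All came from CC016/GeniUnc, a Collaborative Cross inbred strain, and the labels give no engineered allele in either group and no treatment besides the culture. Libraries are numbered by their deposited replicate. Sex and age were not given in the sources used here. Osteoblast differentiation had been started with dexamethasone, ascorbic acid and beta-glycerophosphate. The submitters count 3 biological replicates per label and the methods name 3 mice, and the labels do not tie a bone library to an osteoblast library from the same mouse.

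The COG complex tethers the vesicles that carry glycosylation enzymes back to earlier cisternae of the Golgi apparatus. Its subunits form lobe A (*Cog1* to *Cog4*) and lobe B (*Cog5* to *Cog8*), which *Cog1* and *Cog8* join. The complex works with SNARE proteins, Rab GTPases, golgins and the COPI vesicle coat, and inherited loss of its subunits causes congenital disorders of glycosylation. Osteoblasts send collagen and other glycosylated matrix proteins through the Golgi in large amounts. *Cog6* also lies beside *Lhfp* in the bone mineral density locus that the study examined.

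The labels did not separate the libraries by marker genes. *Hbb-bt*, a beta-globin gene of red cells, was above 1000 FPKM in bone replicate 3 (34838 FPKM), osteoblasts replicate 2 (34268 FPKM) and osteoblasts replicate 3 (48650 FPKM). In the remaining libraries it was at 7.05 FPKM (bone replicate 1), 3.58 FPKM (bone replicate 2) and 3.43 FPKM (osteoblasts replicate 1). The 7 neutrophil markers were all above 1 FPKM in the 3 libraries with *Hbb-bt* above 1000 and summed to at least 14246 FPKM there, against at most 5.51 FPKM in the other 3. The 5 named muscle markers summed to 252 to 1141 FPKM and to at most 1.09 FPKM in the same sets of libraries, and the 5 named markers of dividing cells to 107 to 132 FPKM and to 13.9 to 32.2 FPKM. The 6 named osteoblast and osteocyte markers summed to 123 to 161 FPKM in the libraries with *Hbb-bt* above 1000 and to 1067 to 1439 FPKM in the others, a sum carried by *Ibsp* and *Dmp1*. Among the same markers *Sost*, of osteocytes, was higher where *Hbb-bt* was above 1000 (15.8 to 22.7 FPKM against at most 0.198 FPKM), and *Runx2*, *Sp7* and *Phex* overlapped between those sets of libraries. Of the defining osteoblast genes, *Bglap* had no named feature. These differences between libraries cut across the labels, and their part in the results was not tested. Every library is named here by its deposited label, and no library was moved. Whether each label describes its library could not be settled from these tables, so every value set between bone and osteoblasts holds for the labels as deposited. The ratio of coverage to FPKM implied 2.03 to 3.39 Gb of aligned bases per library. Bone replicate 2 and osteoblasts replicate 1 had 71.5% and 65.0% of their FPKM on unnamed features, and the other 4 libraries 27.4 to 30.7%.

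In GRCm38 coordinates, the *Cog6* interval was chr3:52981875-53017237 (minus strand), which contains the RefSeq gene (52982123 to 53017223). *Cog2* lay at chr8:124520767-124552008 and *Cog4* at chr8:110846600-110882227, both on the plus strand. *Cog3* lay at chr14:75702351-75754541 (minus strand) and *Cog5* at chr12:31654869-31937630 (plus strand). The listed interval of *Cog7*, chr7:121879363-121981711 (minus strand), was 102349 bp long against 58884 bp in RefSeq. It runs opposite to *Scnn1b*, which reached at most 0.056 FPKM. *Cog6* was the only named subunit whose interval no other deposited feature overlapped. The interval of *Cog4* shares 188 bp with *Sf3b3* (18.0 to 39.0 FPKM) and 18999 bp with *Gm26816* (0.222 to 1.55 FPKM). The end of *Cog5* shares 11377 bp with *Hbp1* (11.9 to 19.0 FPKM). The library kit does not mark strand, so some reads in these overlaps may not be assignable to a single gene. The overlaps are of whole intervals, and overlap of exons was not examined.

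Promoter windows from RefSeq (GRCm38.p6), from 250 bases before to 50 bases after the gene's start, were found for all 8 subunits, with 9 windows in all since *Cog4* has 2. The start used equals the listed RefSeq start in *Cog2*, *Cog6*, *Cog8* and the first *Cog4* window. It lies 351 bases downstream of it in *Cog1*, 145 in *Cog3*, 50 in *Cog5*, 26 in *Cog7* and 424 in the second *Cog4* window, so that the *Cog1* and second *Cog4* windows lie wholly inside the gene. Windows are shown for *Cog6* (chr3:53017174-53017473, minus strand), *Cog2* (chr8:124520517-124520816, plus strand) and *Cog7* (chr7:121981644-121981943, minus strand). The capitals mark the core GCATGCG of the motif of NRF1, a factor of housekeeping promoters, and the core CCGGAA of ETS factors, each on either strand. *Cog6* and *Cog2* are shown as the subunits with the NRF1 core, and *Cog7* for ETS cores that overlap on both strands.
*Cog6*: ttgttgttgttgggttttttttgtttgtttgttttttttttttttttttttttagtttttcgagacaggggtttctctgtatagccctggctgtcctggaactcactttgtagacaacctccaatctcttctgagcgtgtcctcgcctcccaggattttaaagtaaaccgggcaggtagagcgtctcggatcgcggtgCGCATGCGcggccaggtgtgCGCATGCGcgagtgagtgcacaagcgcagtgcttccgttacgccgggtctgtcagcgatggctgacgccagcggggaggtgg
*Cog2*: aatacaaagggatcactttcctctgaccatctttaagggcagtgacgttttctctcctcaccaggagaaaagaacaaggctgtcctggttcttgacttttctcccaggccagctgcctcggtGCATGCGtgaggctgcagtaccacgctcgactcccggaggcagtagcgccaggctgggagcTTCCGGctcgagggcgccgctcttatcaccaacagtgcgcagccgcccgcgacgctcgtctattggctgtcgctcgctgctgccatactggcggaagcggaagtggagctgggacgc
*Cog7*: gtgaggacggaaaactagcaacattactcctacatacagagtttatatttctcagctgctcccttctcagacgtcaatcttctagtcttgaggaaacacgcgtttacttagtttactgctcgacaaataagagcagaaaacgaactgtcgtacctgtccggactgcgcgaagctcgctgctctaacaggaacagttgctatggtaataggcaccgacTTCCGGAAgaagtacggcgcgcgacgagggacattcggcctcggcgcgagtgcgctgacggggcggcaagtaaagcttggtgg

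The NRF1 core occurred at 2 places in the *Cog6* window, where its forward and reverse matches overlap, and at 1 place in that of *Cog2*. It was present in 2 of the 9 subunit windows, against 3.58% of 32851 RefSeq windows of the same length. The ETS core was present in 5 of 9 (*Cog2*, *Cog3*, *Cog7*, *Cog8* and the second *Cog4* window), against 14.9% of all windows. The GC box GGGCGG was in 6 of 9 (35.7% of all) and the box CCAAT in 5 of 9 (37.4%). TGACGT, bound by CREB-type factors, was in 3 of 9 (7.51%). The TATA box TATAAA was found in *Cog7* and the second *Cog4* window (13.6% of all), and ACGTGG, a core of the Golgi stress element, in *Cog3* and the first *Cog4* window (8.31%). The subunit windows held from 19 (second *Cog4* window) to 28 (*Cog3*) CG dinucleotides, against a median of 7 over all windows. The shares of all windows were not matched for that content, so they do not show motifs particular to the subunits. These matches describe the letters of the windows, and no binding was measured.

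The 6 named subunits were present in every library, and none of them separated the labels bone and osteoblasts. The lowest value, 4.02 FPKM for *Cog7* in osteoblasts replicate 2, was well above the floor of 0.133 to 0.221 FPKM, which is what 3 pairs would give on 1 kb of transcript. That limit covers counting error only. FPKM scales reads to transcript length and to the aligned reads of the library, and it is the scale used here to set subunits side by side. The order it gives is not the order by coverage, as shown further on. The deposited coverage of the 6 genes, or average read depth per base, ran from 3.16 in *Cog7* to 20.9 in *Cog5*.

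In lobe A, *Cog4*, which binds the Golgi SNARE syntaxin 5 and its partner Sly1, was the most abundant of the 6 named subunits by FPKM, though not by coverage. It measured 21.3, 11.2 and 15.1 FPKM in bone libraries 1 to 3 and 14.9, 12.4 and 16.4 FPKM in osteoblast libraries 1 to 3. *Cog4* was above every other named subunit in each of the 6 libraries, and its values overlapped between the labels. *Cog2*, first known through hamster cells with faulty LDL receptor glycosylation, measured 11.8, 7.63 and 8.63 FPKM in the libraries labelled bone and 10.8, 9.75 and 7.39 FPKM in those labelled osteoblasts. *Cog3*, a core subunit of the lobe, measured 9.27, 4.58 and 5.39 FPKM and 5.35, 5.10 and 7.39 FPKM in the same order. Bone replicate 1 was highest for each of these genes, while the lowest library was bone replicate 2 for *Cog3* and *Cog4* and osteoblasts replicate 3 for *Cog2*.

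In lobe B, *Cog6*, which contacts Golgi SNAREs, measured 13.8, 8.66 and 7.07 FPKM in bone libraries 1 to 3 and 8.34, 10.3 and 9.34 FPKM in osteoblast libraries 1 to 3. All 3 osteoblast values fell within the range of the bone values. *Cog5*, which pairs with *Cog7* in the complex, had the widest spread, with 17.2, 9.94 and 5.99 FPKM under the label bone and 7.98, 6.69 and 9.50 FPKM under the label osteoblasts. *Cog7* was the least abundant of the 6 on average, at 7.96, 4.17 and 5.05 FPKM in the libraries labelled bone and 5.57, 4.02 and 5.50 FPKM in those labelled osteoblasts. The libraries with *Hbb-bt* above 1000 FPKM and the other 3 overlapped in the FPKM of each of the 6 subunits. They did not overlap on the scale relative to the median gene given further on, whose divisor also differed between libraries. In bulk RNA, fewer cells of a type and less RNA per cell cannot be told apart.

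**Figure D1:**
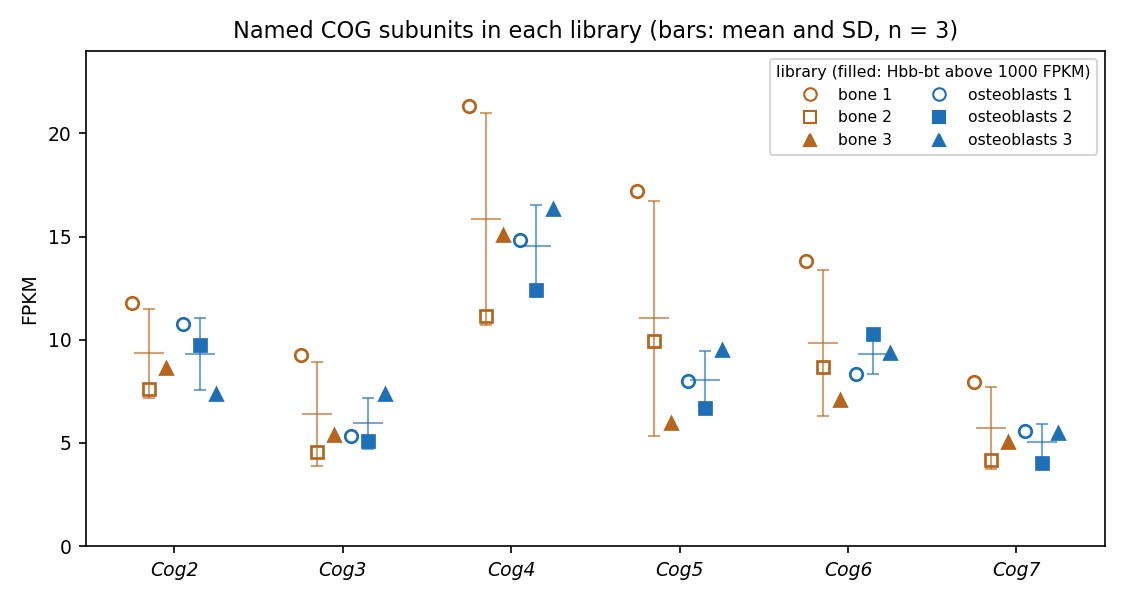
FPKM (vertical axis) of the 6 named COG subunits in each library. Colours give the label, shapes the replicate, filled symbols the libraries with *Hbb-bt* above 1000 FPKM, and bars the mean ± SD of 3 libraries. Bone replicate 1 was the highest library for each subunit, and the labels overlapped for each.

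The mean FPKM over the 6 libraries placed the subunits in the order *Cog4* (15.2 ± 3.55, SD, n = 6), *Cog6* (9.58 ± 2.32), *Cog5* (9.55 ± 4.05), *Cog2* (9.32 ± 1.75), *Cog3* (6.18 ± 1.79) and *Cog7* (5.38 ± 1.42). The neighbours *Cog6*, *Cog5* and *Cog2* differed by less than the larger of their SDs, as did *Cog3* and *Cog7*. The steps from *Cog4* to *Cog6* and from *Cog2* to *Cog3* were larger than those SDs. The step from *Cog4* to *Cog6* held in 6 of 6 libraries. *Cog2* was also above *Cog3* in 6 of 6, but the 2 were level in osteoblasts replicate 3, at 7.392 and 7.389 FPKM. Of the steps within the SDs, *Cog3* was above *Cog7* in 5 of 6 libraries. *Cog6* was above *Cog5*, and *Cog5* above *Cog2*, in 3 of 6. Among the 9833 to 12950 genes with at least 1 FPKM in a library, *Cog4* lay above 69.6 to 78.3% of genes. *Cog6* lay above 55.8 to 68.8%, *Cog2* above 54.8 to 69.1% and *Cog5* above 50.8 to 73.0%. *Cog3* was near the middle, above 43.4 to 54.8%, and *Cog7* was above 36.3 to 49.1%.

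The summed FPKM of the 6 subunits was 81.3, 46.1 and 47.2 in bone libraries 1 to 3 and 52.9, 48.2 and 55.5 in osteoblast libraries 1 to 3. The other 5 libraries thus lay close together and bone replicate 1 stood above them. The median FPKM of the tested genes was also highest in bone replicate 1, at 7.47, and lowest in bone replicate 2, at 3.71. Relative to that median, the highest library was osteoblasts replicate 1 for *Cog2*, *Cog4* and *Cog7*, bone replicate 2 for *Cog5* and *Cog6*, and bone replicate 1 for *Cog3* alone. On this relative scale the highest library exceeded the lowest 2.04-fold for *Cog6*, from 1.14 to 2.33 times the median, and between 1.65-fold (*Cog3*) and 2.77-fold (*Cog5*) for the others. *Cog6* was at 1.85, 2.33 and 1.14 times the median in bone libraries 1 to 3 and at 1.74, 1.51 and 1.33 times in osteoblast libraries 1 to 3. The 3 libraries with *Hbb-bt* above 1000 FPKM were the 3 lowest on this scale for 6 of 6 subunits, and for 32% of all tested genes, while they were the 3 highest for 0 of 6 subunits and 37.3% of genes. From FPKM as deposited they were the 3 lowest for 0 of 6 subunits and 16.9% of genes, and the 3 highest for 0 of 6 subunits and 38.4% of genes. The median used as divisor was 4.78 in osteoblasts replicate 1, and 6.19 to 7.00 in the libraries with *Hbb-bt* above 1000 FPKM. The genes behind it were filtered on their mean over all 6 libraries, so they can include genes expressed in only some libraries. The order on the relative scale therefore reflects the divisor as well as the subunits. These orders are a description with no test, and the markers of blood, muscle and dividing cells given above move with the same libraries.

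The comparison of the labels asks whether the libraries labelled osteoblasts and bone differ in the transcripts of the complex. It holds for the labels as deposited, which the marker genes given above did not separate. It used limma on log2(FPKM + 1) over the 12112 genes that averaged 1 FPKM or more, and 0 of the 6 named subunits passed a Benjamini-Hochberg adjusted p of 0.05. Over all tested genes 0% passed, and 17 of the 12112 had an unadjusted p under 0.05. *Cog6* had 9.84 ± 3.52 FPKM (SD, n = 3) under the label bone and 9.31 ± 0.97 FPKM under the label osteoblasts. Its log2 difference, osteoblasts minus bone, was -0.028 with a 95% interval of -0.997 to 0.94. *Cog5* had 11.0 ± 5.69 and 8.06 ± 1.41 FPKM, and its difference was -0.31 with an interval of -1.39 to 0.77. *Cog4* had 15.8 ± 5.12 and 14.5 ± 1.99 FPKM, with a difference of -0.081. *Cog3* had 6.41 ± 2.51 and 5.95 ± 1.26 FPKM, with a difference of -0.057, and *Cog7* had 5.73 ± 1.98 and 5.03 ± 0.88 FPKM, with a difference of -0.13. *Cog2* had 9.34 ± 2.16 and 9.31 ± 1.74 FPKM, with a difference of 0.00065. The limma adjusted p was at least 0.999 for each subunit.

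These intervals leave room for changes in either direction, so the test does not show that the labels have equal levels. The median difference of the 6 subunits was -0.069, beside 0.12 over all tested genes. The FPKM of the labels overlapped for all 6, whereas 0.916% of tested genes (111 of 12112) had values that did not overlap, 0.479% with osteoblasts higher and 0.438% with osteoblasts lower. With the replicate number as a block, 0 of 6 subunits and 0.405% of genes were called. Without bone replicate 3 the calls were 0 of 6 and 0.636%, and without osteoblasts replicate 1 they were 0 of 6 and 2.48%.

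Within a label, the subunits varied less than most genes on the scale of log2(FPKM + 1). The pooled SD within a label was 0.27 for *Cog2*, 0.33 for *Cog6* and *Cog7*, 0.34 for *Cog4*, 0.37 for *Cog3* and 0.51 for *Cog5*, and its median over all tested genes was 0.59. Only 3.40% of tested genes had a smaller spread than *Cog2* and 8.41% a smaller spread than *Cog6*. For *Cog5* this share was 39.0%, so it stood nearer the middle of all genes than its partners did. Each label holds libraries with *Hbb-bt* above and below 1000 FPKM. The SD within a label includes that difference, for the subunits and for all genes, and is not a measure of replicate spread alone.

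*Cog6* was then set against the other subunits within each library, a ratio that does not depend on the scaling of the library. From FPKM, the ratio of *Cog6* to the median of the other 5 named subunits was 1.17, 1.13 and 1.18 in bone libraries 1 to 3 and 1.04, 1.54 and 1.26 in osteoblast libraries 1 to 3. *Cog6* was thus above that median in 6 of 6 libraries. It was above the geometric mean of the same 5 subunits in 5 of 6, with 0.965 in bone replicate 3. With the unnamed loci over *Cog1* and *Cog8* counted among the others it was above the median in 4 of 6, with 0.820 in bone replicate 3 and 0.983 in osteoblasts replicate 3. Singly, it was above *Cog3* and *Cog7* in 6 of 6, above *Cog2* in 4 of 6, above *Cog5* in 3 of 6 and above *Cog4* in 0 of 6. Its share of the summed FPKM of the 6 subunits was 15.0 to 21.3%. On the log2 scale the ratio was 0.22 ± 0.031 for bone and 0.34 ± 0.28 for osteoblasts (SD, n = 3 each). The difference of 0.12 was smaller than the spread between the osteoblast libraries (exact permutation test, two-sided, p = 0.7, where 3 against 3 libraries cannot give less than 0.1).

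From the deposited coverage the place of *Cog6* was the reverse. The ratio of its coverage to the median coverage of the other 5 was 0.727, 0.830 and 0.487 in bone libraries 1 to 3 and 0.708, 0.605 and 0.540 in osteoblast libraries 1 to 3. *Cog6* was below that median in 6 of 6 libraries, and *Cog7* was the only subunit it exceeded in any library. The 3 lowest ratios were in the libraries with *Hbb-bt* above 1000 FPKM, which was seen after the values were known and was not tested. From FPKM those 3 libraries held the 3 highest ratios to the median, but bone replicate 3 had the lowest ratio of the 6 libraries to the geometric mean or the sum of the other 5. Between the labels the log2 ratio from coverage differed by -0.11 (exact permutation test, two-sided, p = 0.7).

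**Figure D2:**
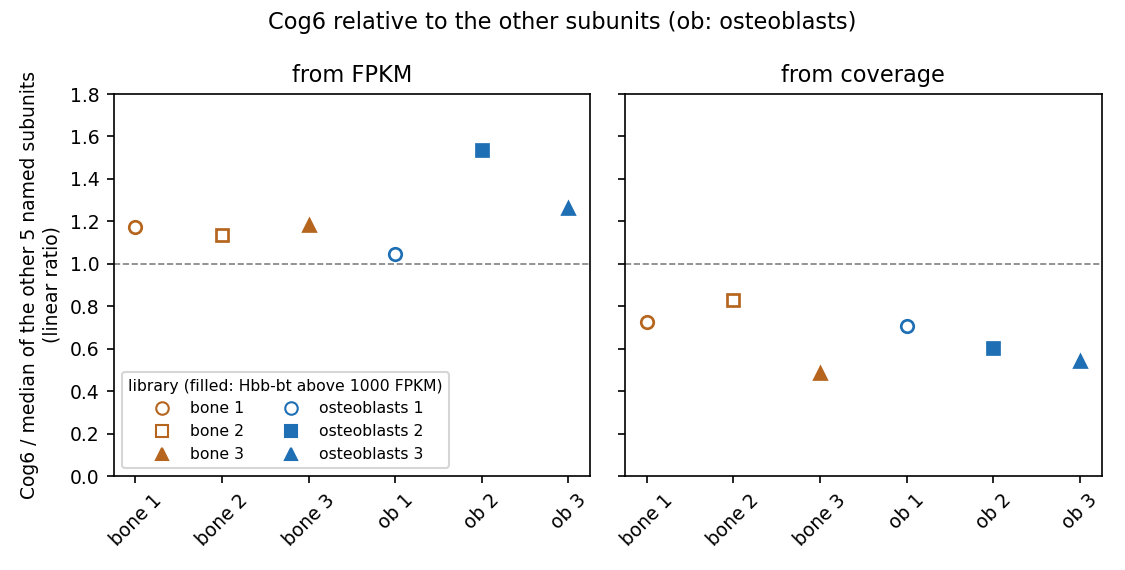
Ratio of *Cog6* to the median of the other 5 named subunits in each library, on a linear axis, from FPKM on the left and from coverage on the right. The dashed line marks a ratio of 1, and filled symbols mark libraries with *Hbb-bt* above 1000 FPKM. All 6 libraries lie above the line from FPKM and below it from coverage.

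The deposited columns were not proportional for all subunits. Each library has a most frequent ratio of coverage to FPKM, and the ratio of a gene was expressed relative to it. For *Cog7* this relative ratio was 0.336 to 0.344, for *Cog5* 0.461 to 0.490 and for *Cog3* 0.723 to 0.773, so that in these genes coverage and FPKM moved together across libraries. For *Cog6* it was 0.373, 0.335 and 0.274 in bone libraries 1 to 3 and 0.342, 0.231 and 0.254 in osteoblast libraries 1 to 3, a 1.61-fold range. The 3 lowest were again the libraries with *Hbb-bt* above 1000 FPKM. *Cog2* ranged 1.57-fold, from 0.444 to 0.699, with its lowest value in osteoblasts replicate 1, and *Cog4* ranged 1.29-fold. Over 11464 tested genes with values above 0 the median range was 1.19-fold, and 82.4% of these genes ranged less than *Cog6*.

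**Figure D3:**
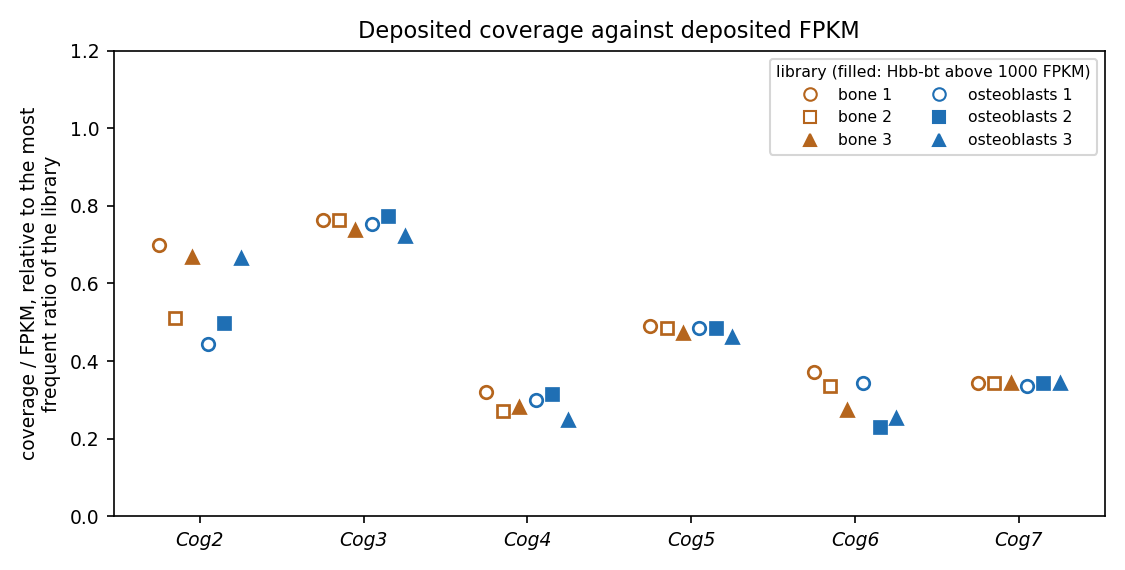
Ratio of deposited coverage to deposited FPKM for each named subunit and library, relative to the most frequent ratio of that library. Filled symbols mark libraries with *Hbb-bt* above 1000 FPKM. *Cog7* and *Cog5* hardly varied, while *Cog6* ranged from 0.231 to 0.373 and *Cog2* from 0.444 to 0.699.

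By coverage per aligned Gb the order of the subunits was *Cog2* (5.41 ± 1.50, SD, n = 6), *Cog3* (4.64 ± 1.34), *Cog5* (4.60 ± 2.01), *Cog4* (4.42 ± 1.28), *Cog6* (2.93 ± 1.14) and *Cog7* (1.84 ± 0.49). *Cog4* thus moved from the top of the order by FPKM to the middle. *Cog7* was last by both measures. Neighbours among *Cog2*, *Cog3*, *Cog5* and *Cog4* differed by less than their SDs, as did *Cog6* and *Cog7*, and the step from *Cog4* to *Cog6* exceeded them. Within libraries, *Cog6* was above *Cog7*, and *Cog4* above *Cog6*, in 6 of 6. *Cog2* was above *Cog3* in 5 of 6, *Cog3* above *Cog5* in 4 of 6 and *Cog5* above *Cog4* in 3 of 6. On this measure the label difference was -0.23 for *Cog6* and -0.20 for *Cog2* on the log2 scale with a pseudocount of 1, against -0.028 and 0.00065 from FPKM. From coverage, 0 of 6 subunits and 0 of all 12112 tested genes passed the limma test.

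The unnamed loci over *Cog1* and *Cog8* were also present in every library. The locus over *Cog1*, at chr11:113649169-113669777 (plus strand), closely matches RefSeq *Cog1* (113649178 to 113669331) and overlaps *Fam104a* and the end of *Slc39a11*. It measured 12.8, 6.48 and 11.7 FPKM in bone libraries 1 to 3 and 8.02, 11.2 and 10.5 FPKM in osteoblast libraries 1 to 3. The locus over *Cog8*, at chr8:107044594-107056689 (minus strand), also holds *Pdf*, the gene of mitochondrial peptide deformylase, and overlaps the end of *Vps4a*. It measured 16.4, 7.57 and 12.6 FPKM under the label bone and 11.5, 12.1 and 10.8 FPKM under the label osteoblasts. Bone replicate 2 was lowest in both loci. Added to the limma fit, the loci differed between the labels by -0.019 and -0.023 on the log2 scale, neither past the threshold.

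The genes most like *Cog6* across the 6 libraries, by the root mean square distance of log2(FPKM + 1) centred on each gene's mean, were *Gtf2b* (0.035), *Txndc9* (0.046) and *Eed* (0.056). *Gtf2b* encodes a general factor of RNA polymerase II initiation and *Eed* a core subunit of a Polycomb complex. *Gtf2b* measured 14.8, 8.93 and 7.78 FPKM in bone libraries 1 to 3 and 8.73, 10.9 and 10.4 FPKM in osteoblast libraries 1 to 3. The other named subunits lay at 0.21 to 0.28 from *Cog6*, nearer than the median gene at 0.49, and ranked 1028 to 2083 among 12111 genes. The nearest subunit was *Cog3* and the farthest *Cog5*. This is a description over 6 libraries that share a strain and a library kit. The distance is not scaled to each gene's spread. Genes that vary little, as most of the subunits do, therefore tend to lie near *Cog6* by it.

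The partners of the complex were taken from lists of Golgi genes. Of 77 listed genes besides the subunits, 64 were tested, and 0 passed the limma threshold (0% of all tested genes did). Values that did not overlap between the labels were found for 0 of the 64, beside 0.916% of all tested genes. None of the 64 had an unadjusted p under 0.05, beside 17 of all 12112. With shares this low over all genes, these counts show nothing particular to the Golgi genes. Among 11 tested Golgi SNAREs and SM proteins, 5 had a difference above 0 and 6 below, with a median of -0.028. *Ykt6*, a lipid-anchored SNARE, had 36.7 ± 16.7 FPKM in bone and 29.9 ± 2.88 FPKM in osteoblasts (SD, n = 3 each, as for the genes that follow). *Stx5a*, the syntaxin that *Cog4* binds, had 23.1 ± 7.79 and 23.8 ± 6.22 FPKM. *Bet1*, a SNARE of transport into the Golgi, had 5.57 ± 3.04 and 3.30 ± 0.55 FPKM, the largest difference of the list at -0.50.

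Of 14 tested golgins and stacking proteins, 12 had a difference below 0, with a median of -0.19. *Gorasp2*, which links Golgi cisternae, had 40.7 ± 22.6 and 32.3 ± 6.45 FPKM under the labels bone and osteoblasts. *Cux1*, whose locus encodes a golgin and a transcription factor, had 28.4 ± 7.74 and 24.5 ± 1.35 FPKM. *Tmf1*, a golgin, had the largest difference of its list, -0.53, with 13.4 ± 10.2 and 7.00 ± 2.73 FPKM. Among the 9 COPI coat genes the median was -0.24 and 7 lay below 0. *Copa* had 52.9 ± 21.6 and 43.9 ± 6.63 FPKM, *Copg1* had 46.9 ± 26.2 and 36.4 ± 6.46 FPKM, and *Copb1* had 22.5 ± 16.3 and 14.1 ± 7.75 FPKM. For each of these 6 genes the SD of the bone libraries exceeded the difference between the label means. Bone replicate 1 was the highest library for each of them. *Copa*, for example, was at 77.8 FPKM there, against 41.6 and 39.3 FPKM in bone replicates 2 and 3.

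The 6 tested Golgi Rab GTPases had a median of -0.035. *Rab1b*, which acts early in the secretory pathway, had 58.6 ± 20.4 and 56.1 ± 12.3 FPKM. *Rab43* was uneven among libraries, with 24.1, 10.7 and 67.5 FPKM in bone libraries 1 to 3 and 13.7, 63.3 and 57.8 FPKM in osteoblast libraries 1 to 3. Its 3 highest values were in the libraries with *Hbb-bt* above 1000 FPKM. The same order held for *Stx5a* and for *Zw10* and *Rint1* of the NRZ tether, and the 3 lowest values lay in those libraries for *Bet1*, *Tmf1*, *Copb1*, *Exoc4*, *Vps50* and *Slc35a2*. *Copb1*, for example, measured 38.2, 23.5 and 5.63 FPKM in bone libraries 1 to 3 and 23.1, 9.34 and 10.0 FPKM in osteoblast libraries 1 to 3. Of the genes named from the lists, *Ykt6*, *Gorasp2*, *Cux1*, *Copa*, *Copg1*, *Rab1b*, *Exoc6*, *Exoc7*, *Vps53*, *Man2a2* and *Galnt1* had neither order. These orders were read from the named genes and not counted over the whole lists. The shares of all tested genes with these orders are the 38.4% and 16.9% given above, and the part of blood cells in them was not tested. Among the 12 tested glycosylation genes the median was -0.31 and 11 lay below 0. *Slc35a2*, the UDP-galactose transporter of the Golgi, had 11.0 ± 5.34 and 6.53 ± 1.55 FPKM with a difference of -0.60. *Man2a2*, a mannosidase of N-glycan processing, had 25.4 ± 17.1 and 15.8 ± 2.20 FPKM, and *Galnt1*, which starts mucin-type O-glycans, had 19.6 ± 11.5 and 16.7 ± 1.84 FPKM. Bone replicate 1 was the highest library for *Slc35a2*, *Man2a2* and *Galnt1*. *Man2a2* was at 44.9 FPKM there, against 18.3 and 13.1 FPKM in bone replicates 2 and 3. The list counts below 0 were not repeated without that library.

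Related tethering complexes gave no calls either. The 8 exocyst genes, of a tether at the plasma membrane, had a median of -0.070. *Exoc4* had 16.2 ± 9.54 and 12.6 ± 1.43 FPKM, *Exoc7* had 11.3 ± 3.72 and 13.1 ± 5.08 FPKM, and *Exoc6* had the largest difference of the list, 0.50, with 6.23 ± 2.53 and 11.0 ± 7.35 FPKM. Of the GARP and EARP tethers of endosome recycling only *Vps53* (27.7 ± 8.20 and 27.2 ± 6.83 FPKM) and *Vps50* (5.71 ± 4.22 and 3.68 ± 1.20 FPKM) had named features. Of the NRZ tether at the endoplasmic reticulum, *Zw10* had 5.35 ± 2.03 and 7.20 ± 2.83 FPKM and *Rint1* 5.91 ± 2.49 and 6.41 ± 3.00 FPKM. The list medians stand beside a median of 0.12 over all tested genes, and no list was tested as a set.

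**Figure D4:**
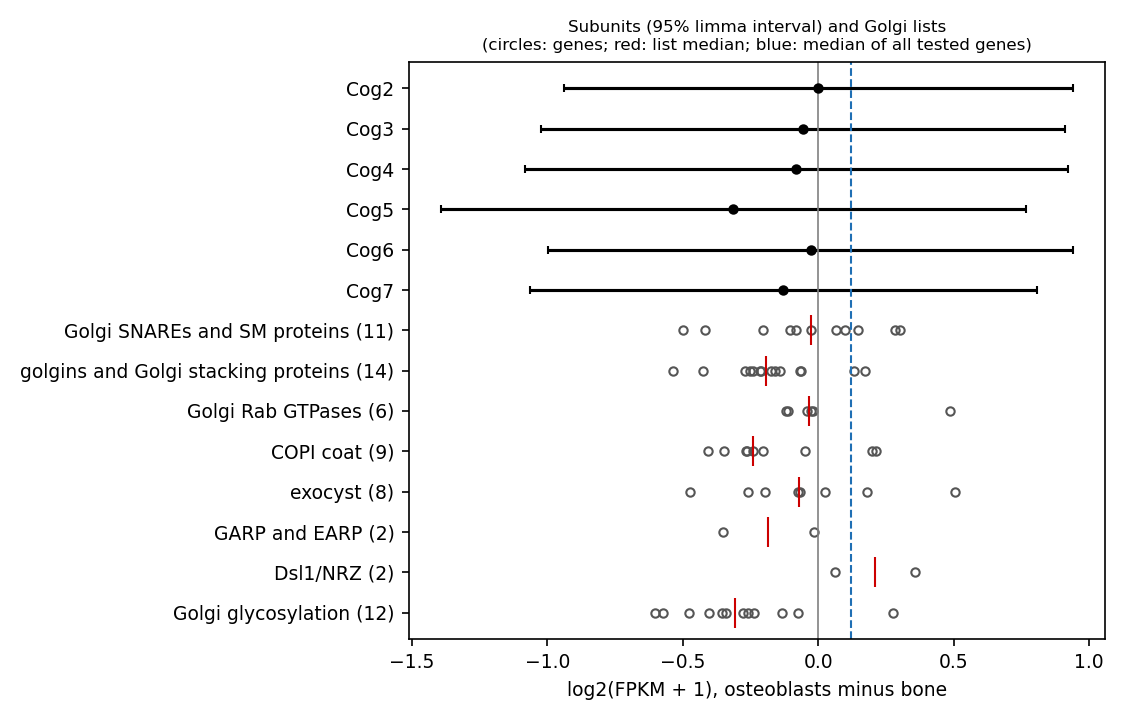
Difference between the labels on the log2(FPKM + 1) scale, osteoblasts minus bone, for the 6 named subunits with their 95% limma intervals and for the tested genes of 8 Golgi lists (open circles, with the number of genes). Red marks are list medians and the blue dashed line is the median of all 12112 tested genes, 0.12. All 6 subunit intervals span 0.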

How the data were processed

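RNA-seq had been run on 3 libraries labelled bone and 3 labelled osteoblasts. Per the submitters' processing notes and the methods, the authors used HISAT2 2.0.5 to align paired reads of 75 bp to GRCm38 and estimated abundance with StringTie 1.3.3 (SAMtools 1.7 is also listed). For 93288 to 93290 features per library they deposited coverage (mean reads per base), FPKM (scaled to transcript length and mapped fragments) and TPM (FPKM rescaled within a library). No counts were used, and the paper's other experiments were not analysed here.

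Features with one name were summed. Depth came from the modal coverage per FPKM of each table. Groups came from the labels. The tests were limma 3.58.1 (lmFit, eBayes with a trend; R 4.3.3) on log2(FPKM + 1), which understates changes of low genes, for genes averaging 1 FPKM or more, and exact permutation tests for the *Cog6* ratio. That ratio had been planned against 7 subunits and was taken against the 5 with named features. The limma step recovered 200 of 200 genes simulated with a log2 change of 2 and an SD of 0.3 among 12112, with 9 other calls, while the median SD in the data was 0.59. P-values measure the spread between these libraries. Genes named are the subunits, *Hbb-bt*, features that overlap a subunit, the 3 genes nearest to *Cog6*, and in each list the 2 most abundant tested genes and the 1 with the largest difference. Marker genes besides *Hbb-bt* were named after their values were seen. Members and lists were chosen with earlier results of these data known. Other settings were the pseudocount, the filter, TPM, 3 further scalings, no trend, the replicate block, coverage, and leaving out libraries. Python 3.11.15, pandas 2.3.3, numpy 2.4.6, scipy 1.17.1 and matplotlib 3.10.9 were used.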

Additional observations from a re-analysis of the deposited data

Results flagged for a closer look

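The unnamed loci over *Cog1* and *Cog8* were left out of the main comparisons, which used named genes, and carried signal in every library. They were counted only in a further form of the *Cog6* ratio and as rows added to the limma fit, both given above. The locus over *Cog1* measured at least 6.48 FPKM and at most 12.8 FPKM, and that over *Cog8* at least 7.57 FPKM and at most 16.4 FPKM. Both lie above 0.221 FPKM, the highest floor of any of the 6 libraries (3 pairs on 1 kb of transcript). The locus over *Cog8* also holds *Pdf*, so its level cannot be given to *Cog8*.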

How the results depend on the processing

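No subunit passed the threshold under any setting tried. The count of genes called over all 12112 was 0 in the fit without the block and 49 with the replicate number as a block, where 0 subunits and 0 list genes were called. The numbers are not known to pair the libraries, since the labels do not tie them to mice. The correlations of same-numbered deviations from the label mean were 0.84, -0.75 and 0.83, and only 1 of 3 bone libraries correlated best with its own number. These deviations include the difference between libraries with *Hbb-bt* above and below 1000 FPKM, so the correlations cannot decide the pairing. Leaving out single libraries gave 0 to 300 calls, 77 without bone replicate 3 and 300 without osteoblasts replicate 1. The difference of *Cog2* fell below 0 with TPM (-0.069), scaling to named genes (-0.17), the 75th percentile (-0.090), quantile normalization (-0.11) and coverage (-0.20). That of *Cog7* was 0.0059 with osteoblasts replicate 1 as the only osteoblast library, and the cause was not tested. Without bone replicate 1 the differences of *Cog3*, *Cog4*, *Cog5*, *Cog6* and *Cog7* all turned above 0, at 0.20, 0.14, 0.039, 0.22 and 0.098. Leaving out single libraries moved the differences between -0.12 and 0.16 for *Cog2*, -0.24 and 0.20 for *Cog3*, -0.29 and 0.14 for *Cog4*, -0.65 and 0.039 for *Cog5*, -0.22 and 0.22 for *Cog6*, and -0.30 and 0.098 for *Cog7*. The *Cog6* ratio differed by -0.017 to 0.26 over the same steps, by -0.11 from coverage, and by -0.18 between bone replicate 3 and osteoblasts replicate 1 alone, a value with no test. Between the same 2 libraries *Cog5*, *Cog6* and *Cog7* differed by 0.36, 0.21 and 0.12, above 0 where all 6 libraries gave values below 0, and *Cog2*, *Cog3* and *Cog4* by 0.29, -0.0086 and -0.020. Its exact sign-flip permutation over the replicate block gave p = 0.75, with 0.25 the smallest possible. Of the 3 genes nearest to *Cog6*, 2 remained after scaling to named genes. Coverage in limma, osteoblasts replicate 1 against 3 bone libraries, the unnamed loci, the ratio in 2 libraries and the order of libraries by *Hbb-bt* were added after seeing the data.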
